A study of Mus musculus with 6 samples.

Results

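The genes described here encode the collagen chains, the laminin chains, the matrix metalloproteinases (MMPs), the tissue inhibitors of metalloproteinases (TIMPs) and the ADAMTS proteases. They were chosen by their symbols alone (Col, Lama, Lamb, Lamc, Mmp, Timp and Adamts followed by their numbers), which 101 of the 22401 rows of the count table carried. These were 44 collagens, 11 laminins, 23 MMPs, 4 TIMPs and 19 ADAMTS genes. RNA-seq was performed on 4T1 cells, a mouse mammary carcinoma line grown in DMEM with 10% serum. The cells received the vehicle DMSO or 10 µM P3FI-90, an inhibitor of the histone demethylase KDM3B, over 24 h, with 3 libraries in each group. Both groups were the same line and no gene was deleted or knocked down, so the comparison asks what the inhibitor did to the transcripts of 1 line at 1 dose and 1 time.

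Collagens and laminins are secreted as trimers of chains and form the extracellular matrix. Laminins and collagen IV make up the sheet of the basement membrane on which epithelial cells rest, whereas fibrillar collagens fill the stroma. MMPs cleave these proteins, TIMPs block MMPs, and ADAMTS enzymes trim procollagens and cleave proteoglycans, and in carcinomas their balance is known to bear on invasion.

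Counts on named genes summed to between 31327094 and 37395732 per library, and no library stood apart from its group. The labels do not say whether the libraries of a group came from separate cultures, so p-values measure the spread between these libraries, which may be technical. Of the mammary epithelial markers, Krt8, Krt18, Krt19, Krt7, Krt14, Epcam and Cdh1 were expressed and Krt5 was at 0. Their summed level was 1850 to 1962 in DMSO and 810.3 to 853.7 in P3FI-90, in CPM on the effective library size per kilobase of exon (CPM per kilobase), and all 7 expressed markers fell. Fibroblast markers summed to 4.63 to 4.88 and then 3.12 to 3.4, mostly from Pdgfra, with Thy1 and Lum at 0. Col1a1 and Col3a1 belong to both this list and the collagens. Leukocyte markers summed to 0.141 to 0.309 in DMSO and 0.586 to 0.684 in P3FI-90, mostly from Csf1r, with Adgre1 at 0. Endothelial markers summed to 0.0699 to 0.155 and 0.19 to 0.298. The part of these markers in the changes below was not tested, and in bulk RNA fewer cells of a type and less RNA per cell cannot be told apart.

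Of the 101 genes, 16 were at 0 in every library, 31 had counts too low for the filter and 54 were tested. Under P3FI-90, 23 rose, 17 fell and 14 passed the threshold in neither direction (edgeR's quasi-likelihood test, adjusted p under 0.05). The 40 called genes were 74.1% of those tested, against 79.3% of all 12288 genes tested, so these families were called about as often as the rest of the transcriptome. The corresponding shares of all genes were 39.9% higher and 39.4% lower. Scaled by total counts instead, 26 members were higher and 15 lower, and the calls over all genes went from 4908 higher and 4841 lower to 6179 and 3641. The median log2 fold change was 0.06 for the members and 0.01 for all genes. A log2 fold change over 1 was reached by 15 higher and 5 lower members, against 12.7% and 10.6% of all genes. The 3 libraries of a group lay entirely above those of the other group for 23 higher and 19 lower members, against 41% and 40.2% of all genes (81.2% in either direction). Of the tested members, 9 had under 10 normalized counts in 1 group (6 higher, 1 lower and 2 neither). Those called could pass the filter only through the group where they were high, and Mmp28, which rose, also needed P3FI-90 libraries to pass. The 6 higher ones and Mmp28 are among the 15 that rose by over 1 on the log2 scale.

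**Figure D1:**
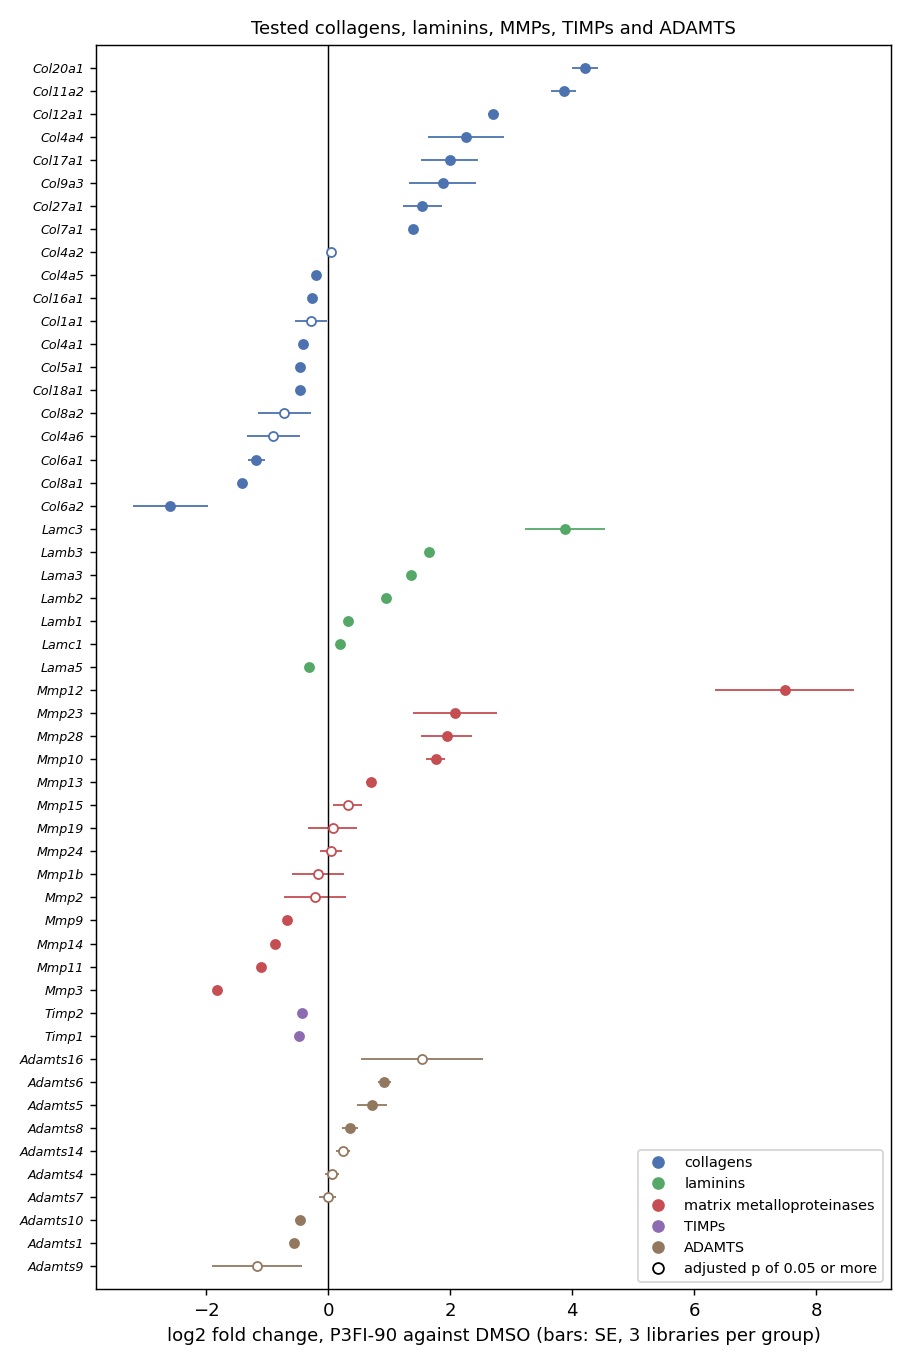
Log2 fold change of P3FI-90 against DMSO (horizontal axis) for 53 of the 54 tested genes, coloured by family, with bars for the standard error over 3 libraries per group and open circles for an adjusted p of 0.05 or more. The laminins drawn lie right of 0 except Lama5, the TIMPs lie left of 0, and collagens, MMPs and ADAMTS genes spread to both sides.

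The families differed in their summed level, which is given in CPM per kilobase so that long and short genes can be added. For laminins the sums were 274.0, 264.9 and 281.4 in DMSO, against 367.1, 371.3 and 370.5 in P3FI-90. For MMPs they were 185.4, 175.1 and 183.0 in DMSO, against 109.3, 114.6 and 108.8 in P3FI-90. For TIMPs they were 216.0, 219.0 and 219.3 in DMSO, against 158.9, 162.3 and 158.0 in P3FI-90. Laminins were therefore higher and MMPs and TIMPs lower in every P3FI-90 library, without overlap. Collagens summed to 277.1 to 295.1 in DMSO and to 244.1 to 256.5 in P3FI-90, but as a share of all counts on named genes they were 0.19 to 0.202% and 0.2 to 0.212%, which overlap and lean the other way. ADAMTS genes summed to 20.1 to 21.4 and 19.7 to 20.6, which overlap. As a share of counts on named genes they were 0.0111 to 0.0115% in DMSO and 0.0126 to 0.0133% in P3FI-90, which do not overlap. With 3 libraries against 3, an exact permutation test cannot go below a two-sided p of 0.1, so these sums carry no call.

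**Figure D2:**
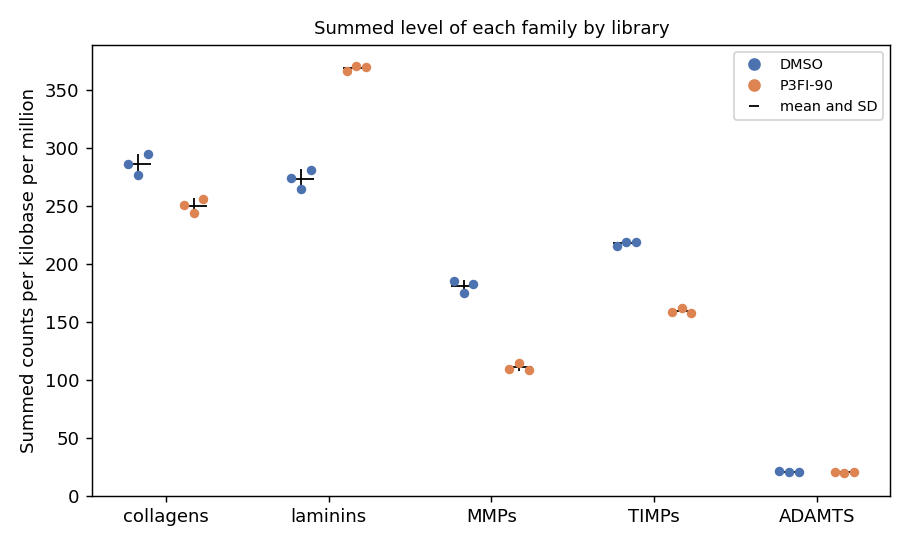
Summed level of each family in CPM per kilobase (vertical axis), with 1 point per library, a horizontal line for the mean and a vertical bar for the SD of 3 libraries per group. Laminins sit higher in P3FI-90 (367.1 to 371.3 against 264.9 to 281.4), MMPs and TIMPs lower, and the ADAMTS points overlap.

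Among the laminins, 7 of the 8 tested chains rose and Lama5 fell, against 39.9% and 39.4% of all genes. Of those that rose, Lamc3 had under 10 normalized counts in DMSO and could pass the filter only through P3FI-90. A laminin is a trimer of 1 alpha, 1 beta and 1 gamma chain, and those encoded by Lama3 and Lamb3 belong to laminins that anchor epithelial cells to the basement membrane. Normalized counts (counts rescaled so that all libraries have the average effective size) of Lamb3 were 4033, 3848 and 3909 in DMSO and 12398, 12702 and 12168 in P3FI-90. Those of Lama3 were 1697, 1952 and 1610 in DMSO and 4545, 4401 and 4414 in P3FI-90. In both genes every P3FI-90 library exceeded every DMSO library. The log2 fold change was 1.66 ± 0.035 (SE, n = 3 per group) for Lamb3, with an adjusted p of 5.18e-14 by edgeR. It was 1.35 ± 0.061 for Lama3 (adjusted p = 8.47e-11).

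The other abundant chains described here moved less. Lamb1, the beta chain of many basement membrane laminins, had 23040, 22515 and 23771 normalized counts in DMSO and 28869, 29140 and 29222 in P3FI-90. The groups did not overlap, and the log2 fold change was 0.33 ± 0.029 (adjusted p = 9.94e-08). Lamc1, the gamma chain of most laminins, rose by 0.20 ± 0.033 on the log2 scale, and Lamb2 by 0.94 ± 0.052. Lama5, the main alpha chain of adult basement membranes, fell by 0.31 ± 0.041 on the log2 scale (adjusted p = 8.35e-06), from a mean of 24975 to 20166 normalized counts. Lamc3 went from 2.49 to 38.4 normalized counts, and its fold change of 3.88 ± 0.66 on the log2 scale rests on few reads (4.96 without DMSO library 1 and 3.28 without DMSO library 3). Lama2, which was below the filter, had 0 counts in DMSO and 44 in P3FI-90 over the 3 libraries, which is at least 12.8-fold higher against a floor of 3 counts over the group. Counts of 2 were commoner than counts of 1 in all 6 libraries, and whether both mates of a pair were counted is not given. If they were, this bound and that of Mmp12 would be too high. Lama4 had 4 and 7 counts, and Lama1 was at 0.

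The ratios between chains of the same kind, alpha or beta, moved with these changes. Per length, the ratio of Lama3 to Lama5 was 0.0707, 0.0895 and 0.0648 in DMSO and 0.242, 0.23 and 0.23 in P3FI-90. The ratio of Lamb3 to Lamb1 went from 0.255 ± 0.008 to 0.641 ± 0.0149 (SD, n = 3; exact permutation test, p = 0.1, the smallest possible). Lama3 and Lamb3 thus stayed below Lama5 and Lamb1 per length in every library, and were nearer to them in P3FI-90.

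**Figure D3:**
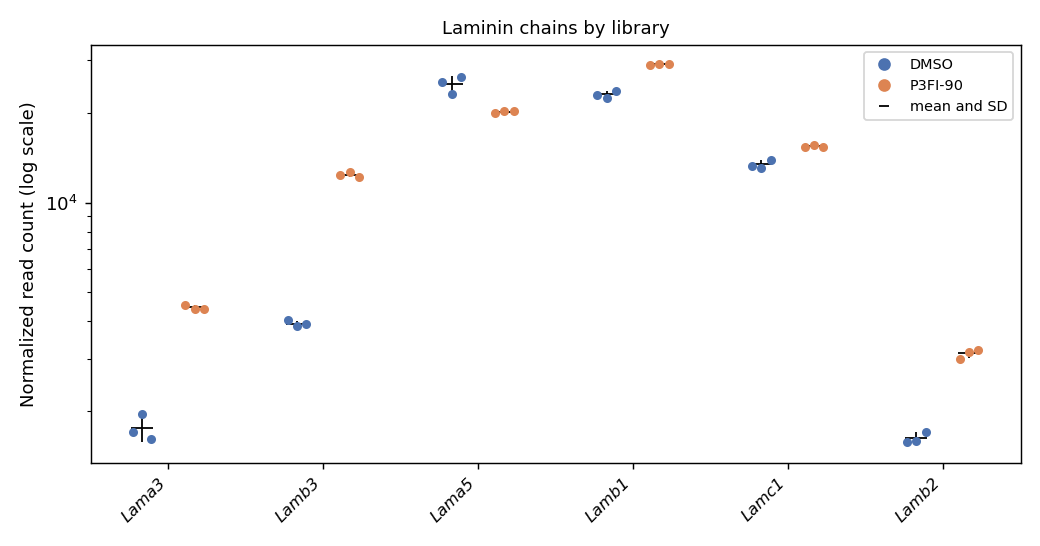
Normalized read count of 6 laminin chains on a log scale (vertical axis), with 1 point per library, the mean and the SD of 3 libraries per group. Lama3 and Lamb3 are higher in all P3FI-90 libraries, with the widest gap for Lamb3, and Lama5 alone of the 6 is lower.

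The tested collagens were split, with 8 of 20 higher, 8 lower and 4 neither, against 39.9% higher and 39.4% lower over all genes. Col4a4, Col9a3 and Col17a1, which rose, had under 10 normalized counts in DMSO, and Col6a2, which fell, in P3FI-90. These could pass the filter only through the other group. The collagens that rose by over 1 on the log2 scale with at least 100 normalized counts were Col7a1, Col12a1, Col11a2 and Col20a1. Col7a1 encodes collagen VII, which forms the anchoring fibrils below epithelial basement membranes. It had 4507, 4159 and 4615 normalized counts in DMSO and 11734, 10642 and 12527 in P3FI-90, a log2 fold change of 1.39 ± 0.056 (adjusted p = 2.08e-11). The groups lay far apart, and Col7a1 went from 12.3 to 32.3 CPM per kilobase, which took its share of the summed collagen level from 4.29% ± 0.109 to 12.9% ± 0.734 (SD, n = 3).

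Col12a1 and Col20a1 encode collagens of the class that binds to the surface of fibrils. Col12a1 had 272.2, 366.1 and 307.2 normalized counts in DMSO and 2105, 2046 and 2022 in P3FI-90, so the lowest P3FI-90 library was several times the highest DMSO library. Its log2 fold change was 2.71 ± 0.087 (adjusted p = 2.32e-12). Col20a1 had 12.1, 13.2 and 14.3 normalized counts in DMSO and 264.8, 241.0 and 237.1 in P3FI-90, a log2 fold change of 4.21 ± 0.22 (adjusted p = 3.88e-10). Col11a2, a chain of the cartilage fibrillar collagen XI, had 20.2, 30.1 and 36.7 in DMSO and 458.5, 346.2 and 466.3 in P3FI-90, a log2 fold change of 3.86 ± 0.21 (adjusted p = 6.33e-10). Both were thus at low counts in DMSO and clearly counted in every P3FI-90 library. Col11a1, a partner chain of Col11a2, was at 0, and per length Col20a1 and Col11a2 reached only 1.37 and 1.76 CPM per kilobase.

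Col8a1 and Col6a1 were the collagens with at least 100 counts that fell by over 1 on the log2 scale. Col8a1, a short-chain network collagen of vessel walls and remodelled tissue, had 10494, 10502 and 10787 normalized counts in DMSO and 4075, 3892 and 3893 in P3FI-90. Its log2 fold change was −1.42 ± 0.035 (adjusted p = 1.85e-13), and the spread within each group was small beside the gap between them. Col6a1, a chain of the beaded-filament collagen VI, had 467.5, 492.6 and 468.5 in DMSO and 204.0, 255.4 and 169.5 in P3FI-90, a log2 fold change of −1.18 ± 0.14 (adjusted p = 2.49e-06). Col6a2, which lies beside Col6a1 and encodes another chain of the same trimer, went from 42.0 to 6.84 normalized counts and fell by 2.59 ± 0.62 on the log2 scale. Without P3FI-90 library 2 the value was −3.24. Col6a3 was at 0 in every library.

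Collagen IV, the network collagen of basement membranes, was the most abundant collagen. Col4a1 had 23770, 23957 and 24986 normalized counts in DMSO and 18134, 17859 and 18665 in P3FI-90, a log2 fold change of −0.41 ± 0.031 (adjusted p = 2.16e-08). Col4a2 had 16771, 15260 and 17106 in DMSO and 16872, 16832 and 17176 in P3FI-90, which overlap, with a log2 fold change of 0.05 ± 0.04 (adjusted p = 0.258). Both genes lie head to head and their chains join in 1 trimer, yet the ratio of Col4a1 to Col4a2 per length went from 1.26, 1.39 and 1.3 to 0.953, 0.941 and 0.964. The groups did not overlap (exact permutation test, p = 0.1). Scaled by total counts instead, Col4a2 was called higher at a log2 fold change of 0.26, and at 0.12 with a trend of fold change with length and GC content removed. Among the rarer chains, Col4a4 rose by 2.26 ± 0.63 on the log2 scale from 7.08 to 33.5 normalized counts (1.65 without DMSO library 1), and Col4a5 fell by 0.20 ± 0.075. The Col4a5 call was lost, at 0.01, when scaled by total counts, and at −0.18 and −0.12 when DMSO library 2 or P3FI-90 library 2 was left out. Col4a6 went from 49.8 to 26.6 normalized counts (adjusted p = 0.0742), and was called lower by limma-voom (−1.14), by limma on log2(CPM + 1) (−0.49) and without P3FI-90 library 3 (−1.25).

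The fibrillar collagens that dominate stroma were scarce. Col1a1 had 70.1 ± 6.4 and 57.5 ± 11.8 normalized counts (SD, n = 3; adjusted p = 0.324). Col1a2 had 9 counts in DMSO and 67 in P3FI-90 over 3 libraries and was below the filter. All 38 counts of Col3a1 were in 1 DMSO library, so no fold is given. Col5a1, which seeds fibrils, fell by 0.46 ± 0.038 on the log2 scale and was the most abundant fibrillar chain, at 17.6 and 12.8 CPM per kilobase. Col18a1, the source of endostatin, fell by 0.47 ± 0.04 and the fibril-associated Col16a1 by 0.26 ± 0.046. The Col16a1 call was lost, at −0.04, when scaled by total counts. Col17a1, a transmembrane collagen of hemidesmosomes, went from 7.15 to 28.7 normalized counts (log2 fold change 1.99 ± 0.47), and Col27a1 rose by 1.54 ± 0.32. Col9a3 went from 8.1 to 30.5 normalized counts (log2 fold change 1.88 ± 0.55), a call lost at 1.37 without P3FI-90 library 1. Col8a2 went from 20.6 to 12.5 (adjusted p = 0.15).

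**Figure D4:**
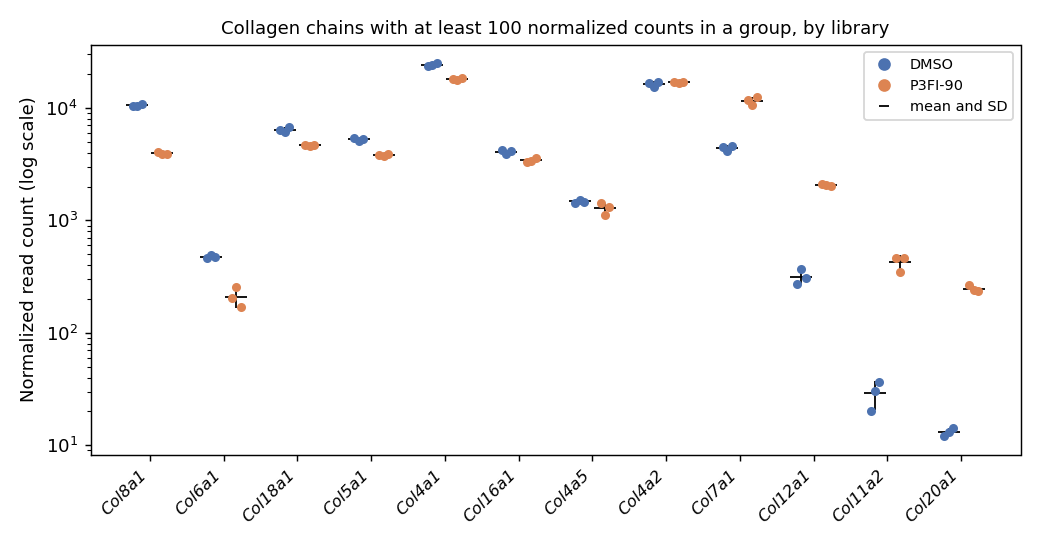
Normalized read count on a log scale (vertical axis) of the 12 collagen chains with at least 100 normalized counts in a group, ordered by log2 fold change, with 1 point per library, the mean and the SD of 3 libraries per group. Col8a1 and Col6a1 are lowest in P3FI-90 relative to DMSO, Col4a2 overlaps, and Col12a1, Col11a2 and Col20a1 show the widest gaps upward.

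The genes that make collagen were taken from a list of 63 partners in matrix assembly and turnover, of which 51 were tested, 14 rose and 28 fell, against 39.9% and 39.4% of all genes. Scaled by total counts, 21 were higher and 23 lower. Their median log2 fold change was −0.31. Of the 15 tested genes of collagen modification and folding, 5 rose and 6 fell. The prolyl 4-hydroxylase subunits P4ha1 and P4ha2, which hydroxylate collagen so that its helix is stable, rose by 1.45 ± 0.037 and 1.07 ± 0.054 on the log2 scale. The collagen chaperone Serpinh1 fell by 1.18 ± 0.038. Of the 8 tested genes of processing and cross-linking, 1 rose and 5 fell. Loxl4, a lysyl oxidase that cross-links collagen, rose by 1.40 ± 0.041, whereas Pcolce, an enhancer of procollagen C-proteinase, fell by 1.70 ± 0.061 and the transglutaminase Tgm2 by 1.20 ± 0.059.

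Of 11 tested genes of other matrix proteins, 1 rose and 8 fell, against 39.9% and 39.4% of all genes. The gene that rose was Tnc (tenascin C), at 2.03 ± 0.14 on the log2 scale, while Sparc fell by 0.87 ± 0.035 and Thbs1 by 0.58 ± 0.032. All 8 tested non-integrin receptors were called, 3 higher and 5 lower, where 79.3% of all genes tested were called. Ddr2, a receptor tyrosine kinase for fibrillar collagen, rose by 0.76 ± 0.034, and dystroglycan, the laminin receptor encoded by Dag1, fell by 0.88 ± 0.038. Rpsa fell by 0.51 ± 0.024, but it has pseudogene copies that may share its reads.

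Of the 14 tested MMPs, 4 fell, 5 rose and 5 were called in neither direction, where 39.4% of all genes fell and 39.9% rose. Mmp12 and Mmp23, which rose, had under 10 normalized counts in DMSO and could pass the filter only through P3FI-90. Mmp28, which also rose, had 8, 18 and 19 counts in DMSO and likewise needed P3FI-90 libraries to pass. The most abundant MMPs were among those that fell. Mmp9, a gelatinase that degrades denatured collagen and collagen IV, had 13100, 12129 and 12710 normalized counts in DMSO and 7975, 8172 and 7761 in P3FI-90, a log2 fold change of −0.67 ± 0.037 (adjusted p = 6.74e-10). Mmp14, the membrane-anchored activator of proMMP2, had 5965, 5374 and 5785 in DMSO and 2991, 3396 and 2996 in P3FI-90, a log2 fold change of −0.87 ± 0.054 (adjusted p = 2.20e-09). No P3FI-90 library reached the DMSO range for either gene. Mmp9 alone held 56.2% ± 0.6 of the summed MMP level in DMSO and 57.9% ± 0.765 in P3FI-90. Mmp2, the other gelatinase, had only 15.7 and 13.3 normalized counts (adjusted p = 0.708).

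The stromelysins, which cleave many matrix proteins and activate other MMPs, moved in both directions. Mmp3 had 1830, 1956 and 1874 normalized counts in DMSO and 511.8, 545.8 and 539.8 in P3FI-90, a log2 fold change of −1.82 ± 0.061 (adjusted p = 3.55e-12). Mmp10 had 112.3, 83.1 and 113.3 in DMSO and 344.3, 326.4 and 383.0 in P3FI-90, a log2 fold change of 1.76 ± 0.16 (adjusted p = 1.19e-07). The ratio of Mmp10 to Mmp3 per length was 0.0642, 0.0444 and 0.0632 in DMSO and 0.704, 0.625 and 0.742 in P3FI-90. Mmp10 was thus far below Mmp3 in every DMSO library and nearer to it in every P3FI-90 library. Of their 50-base transcript windows, 8.4% are shared with other genes, mainly with each other, so some reads could be assigned to the wrong one. Mmp11 had 1256, 1133 and 1259 in DMSO and 562.4, 539.5 and 601.5 in P3FI-90, a log2 fold change of −1.10 ± 0.074 (adjusted p = 5.47e-09), and 5.58% of its exon bases overlap Chchd10.

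Mmp3 and Mmp10 belong to a run of 10 MMP genes on chromosome 9, in the order Mmp13, Mmp12, Mmp1b, Mmp3, Mmp1a, Mmp10, Mmp8, Mmp27, Mmp20 and Mmp7 (RefSeq, assembly GRCm38.p6). The collagenase Mmp13 rose by 0.70 ± 0.088 on the log2 scale, from 446.7 to 724.5 normalized counts. The elastase Mmp12 had 0 counts in each DMSO library and 25, 30 and 17 in P3FI-90, which is at least 21-fold higher against a floor of 3 counts over the group. Mmp1b, with 21.4 and 19.0 normalized counts, was called in neither direction. It shares 19.71% of its windows with other genes, mainly Mmp1a, and exon bases with Mmp12. Mmp1a, Mmp8, Mmp27, Mmp20 and Mmp7 had too few reads to be tested. Of the 5 tested genes of the run, 3 rose, Mmp3 fell and Mmp1b did neither. Mmp12, among the 3 that rose, could pass the filter only through P3FI-90.

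The 250 bases before the RefSeq start are shown for Mmp3 and Mmp10, members of this run that moved in opposite directions, and for Col7a1, which rose and holds another kind of promoter. They are from RefSeq, build GRCm38.p6, plus strand, at chr9:7445572-7445821, chr9:7502092-7502341 and chr9:108953336-108953585, and lie before the first exon. The 5 motifs searched were the AP-1 site TGANTCA, the GC box GGGCGG, the E-box CACGTG and the core of the interferon response element, all on both strands, and the TATA box TATAAA on the strand of the gene. Capitals mark the motifs found.
Mmp3: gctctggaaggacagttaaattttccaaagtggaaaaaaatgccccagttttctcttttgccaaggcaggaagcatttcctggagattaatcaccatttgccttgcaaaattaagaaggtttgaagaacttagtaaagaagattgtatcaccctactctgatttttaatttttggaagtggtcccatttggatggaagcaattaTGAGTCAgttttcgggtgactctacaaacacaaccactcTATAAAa
Mmp10: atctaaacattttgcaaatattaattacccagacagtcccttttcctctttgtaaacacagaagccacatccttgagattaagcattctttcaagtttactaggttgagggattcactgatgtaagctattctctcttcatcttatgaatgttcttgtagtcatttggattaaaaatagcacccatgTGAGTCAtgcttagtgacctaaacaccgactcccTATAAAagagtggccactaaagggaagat
Col7a1: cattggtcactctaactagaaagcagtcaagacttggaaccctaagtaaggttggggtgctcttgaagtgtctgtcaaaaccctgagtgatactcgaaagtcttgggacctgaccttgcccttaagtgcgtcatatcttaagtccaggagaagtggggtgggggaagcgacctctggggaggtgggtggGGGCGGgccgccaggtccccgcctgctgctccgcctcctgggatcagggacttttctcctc

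Mmp3 and Mmp10 each held 1 AP-1 site and 1 TATA box, so these letters did not separate the gene that fell from the one that rose. The AP-1 site began 46 bases before the start in Mmp3 and 63 in Mmp10, and Col7a1 held a GC box 61 bases before. A promoter was found for 72 of the 101 members. The AP-1 letters were in the promoters of 8 of the 18 MMP genes (Mmp10, Mmp12, Mmp13, Mmp1a, Mmp1b, Mmp20, Mmp3 and Mmp7), all in the run on chromosome 9, and among the other members in Col6a1. They were in 6.75% of all 32851 promoters and in 38.1% of MMP promoters. The TATA letters were in 7.59% of all promoters and in 38.1% of MMP promoters. The GC box was found for 5 of 14 members that rose (35.7%) and 12 of 15 that fell (80%). It was also found for 7 of 8 members called in neither direction (87.5%). Over all genes it was found for 35.4%, and over the genes tested for 63.9% of those that rose and 67.2% of those that fell. It was in 32.7% of all promoters. The E-box was in Adamts17 and Mmp7 and in 6.02% of all promoters, and the interferon response element in Mmp13 and in 2.98% of all promoters. A match is a description of these letters, not evidence of binding.

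The inhibitors of MMPs fell as well. Timp1 had 2511, 2660 and 2530 normalized counts in DMSO and 1812, 1904 and 1796 in P3FI-90, a log2 fold change of −0.48 ± 0.05 (adjusted p = 6.21e-07). Timp2, which also takes part in the activation of proMMP2 by Mmp14, had 18487, 18246 and 18863 in DMSO and 13753, 13824 and 13699 in P3FI-90, a log2 fold change of −0.43 ± 0.029 (adjusted p = 6.47e-09). The groups overlapped for neither gene. Timp3 had 2 and 15 counts over 3 libraries, and Timp4 was at 0. Per length, the ratio of Mmp9 to Timp1 went from 1.24 ± 0.0849 to 1.09 ± 0.0142, and that of Mmp14 to Timp2 from 0.201 ± 0.00922 to 0.149 ± 0.0104 (SD, n = 3; exact permutation test, p = 0.1 for each).

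**Figure D5:**
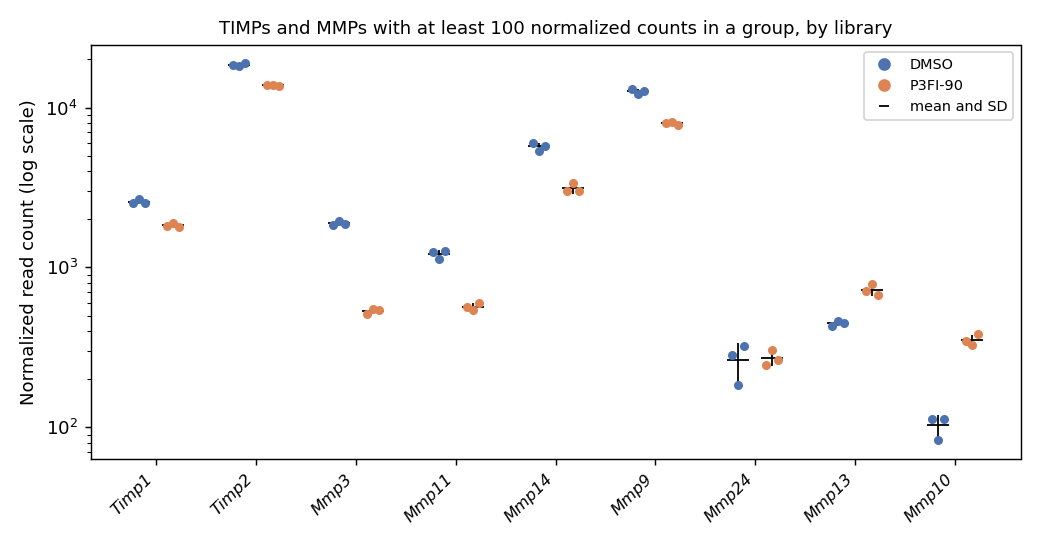
Normalized read count on a log scale (vertical axis) of Timp1, Timp2 and the 7 MMPs with at least 100 normalized counts in a group, with 1 point per library, the mean and the SD of 3 libraries per group. Mmp3 shows the widest gap downward and Mmp10 the widest upward, and Mmp24 overlaps between the groups.

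Other genes of matrix proteolysis were also called in both directions. Of 6 tested genes of plasminogen activation, 2 rose and 3 fell, against 39.9% and 39.4% of all genes. Plau, the urokinase that generates plasmin, fell by 1.68 ± 0.059 on the log2 scale and its receptor Plaur by 0.74 ± 0.055. All 3 tested regulators of MMPs were called, where 79.3% of all genes tested were called. The MMP inducer Bsg rose by 0.35 ± 0.029 and the membrane MMP inhibitor Reck by 0.41 ± 0.15 (adjusted p = 0.021), and the proprotein convertase Furin fell by 0.20 ± 0.044.

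Among the other MMPs, the epidermal Mmp28 rose by 1.94 ± 0.42 on the log2 scale, from 16.4 to 62.5 normalized counts, and 12.03% of its exon bases overlap 1700020L24Rik. Mmp23 rose by 2.08 ± 0.69 from 6.74 to 27.8 normalized counts, a call lost at 1.72 without P3FI-90 library 2. The value was 1.46 without DMSO library 1 and 2.74 without DMSO library 2. Mmp15 (0.32 ± 0.24), Mmp19 (0.07 ± 0.40) and Mmp24 (0.04 ± 0.18) had overlapping groups and passed in neither direction. Another gene overlaps 22.33% of the exon bases of Mmp19 and 13.6% of those of Mmp24.

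The ADAMTS genes were low, and 3 of the 10 tested rose, 2 fell and 5 did neither, where 39.9% of all genes rose and 39.4% fell. Adamts1, which cleaves proteoglycans such as versican, had 1596, 1377 and 1434 normalized counts in DMSO and 1045, 909.0 and 1034 in P3FI-90, a log2 fold change of −0.56 ± 0.074 (adjusted p = 7.15e-06). The groups did not overlap. Its neighbour Adamts5, an aggrecanase, went from 68.4 to 112.3 normalized counts (log2 fold change 0.72 ± 0.25, adjusted p = 0.0168). That call was lost when DMSO library 1, DMSO library 3 or P3FI-90 library 3 was left out, at 0.64, 0.63 and 0.52. Adamts14, a procollagen N-proteinase, had 501.9, 407.1 and 563.4 in DMSO and 560.5, 629.4 and 557.4 in P3FI-90, which overlap, with a log2 fold change of 0.24 ± 0.11 (adjusted p = 0.0619). It was called higher under 5 alternatives: total counts (0.46), at least 10 counts in every library (0.26), DESeq2 (0.25), the length and GC trend removed (0.38) and DMSO library 3 left out (0.35). Adamts6 rose by 0.92 ± 0.11 and Adamts10 fell by 0.47 ± 0.078. Adamts8 went from 233.4 to 299.7 normalized counts (adjusted p = 0.0231), and the call was lost without DMSO library 3 (0.27) or P3FI-90 library 2 (0.29). Adamts4 and Adamts7 differed by 0.06 ± 0.11 and −0.01 ± 0.14, and Adamts4 was called higher at 0.27 when scaled by total counts. Adamts9 and Adamts16 had 14.1 and 4.01 normalized counts in DMSO and 6.08 and 10.9 in P3FI-90, and neither was called.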

How the data were processed

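RNA-seq of 4T1 cells was analysed from read counts per gene, whole numbers without normalization that the authors deposited. The submitters' processing notes name CASAVA, HISAT2, StringTie and the build GRCm39. Versions, annotation, strandedness and whether both mates of a pair were counted are not given in the sources used here, so reads of a gene and of an overlapping antisense gene may not be separated. Depth was 31327094 to 37395732 counts on named genes. The 296 rows without an Ensembl gene identifier, 0.483 to 0.556% of the counts, were left out.

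Genes were filtered with filterByExpr, normalized by TMM and compared by the quasi-likelihood test of edgeR 4.0.16 (R 4.3.3), with Benjamini-Hochberg adjustment over 12288 genes and a threshold of 0.05. Normalized counts are counts rescaled to the average effective library size, and the SE is the absolute log2 fold change divided by the square root of F. Exon lengths and overlaps came from GENCODE M21 (GRCm38) by gene identifier. As this is not the build of the files, gene coordinates in the files' build are not printed. The promoters, their coordinates and the gene order are those of RefSeq GRCm38.p6. Bounds use a floor of 3 counts over a group and cover counting error only, and would be too high if both mates were counted. The deviations of equally numbered libraries correlated by −0.0214, 0.015 and 0.00491, so the numbers were not treated as pairs.

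Values in every library are given for members with an adjusted p under 0.05, a mean of 100 or more normalized counts in either group and an absolute log2 fold change over 1, and for the 2 members of each family with the highest count per length. Members with at least 20 normalized counts may be named beside their role or chain, as may members at 0 in 1 group. Members under these limits (such as Lama4, Timp3, Col3a1, Col1a2 and Mmp2) were named after their values were seen, to account for their trimer or family. Of each list of partners, the 3 genes with the smallest p are named. Some genes that the rule names are not reported here, although the counts and sums over lists include them. The members, lists and motifs were chosen with earlier results of these data known. Alternatives were 3 other normalizations (total counts, upper quartiles and the size factors of DESeq2), 2 other filters, DESeq2 1.42.0, limma-voom and limma on log2(CPM + 1) with limma 3.58.1, a replicate block and each library left out. The edgeR test was run on simulated counts in which few genes changed, whereas 79.3% of the genes tested were called here. That simulation did not examine normalization when most genes are called.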

Additional observations from a re-analysis of the deposited data

How the results depend on the processing

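Of 51 named members with a test, 31 kept their direction and their side of the threshold under all 16 alternatives, and 6 more did so under the 15 that tested them, since the filter of 10 counts left them out. Of the alternatives, 15 were planned and 1, a trend with length and GC content removed, was chosen after seeing the data. The counts of calls by family stayed within 1.5 times their main value with 3 exceptions. With at least 10 counts in every library, collagens called higher went from 8 to 5 and MMPs called higher from 5 to 2, since fewer genes were tested (15 collagens and 10 MMPs). Scaled by total counts, ADAMTS genes called higher went from 3 to 5. That scaling moved the median log2 fold change of all genes from 0.01 to 0.23.

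Directions turned for genes near 0 and for Col4a5, which was called. Scaled by total counts, Col4a5 had a log2 fold change of 0.01, Mmp1b of 0.05 and Adamts7 of 0.21. Adamts7 was also at 0.00 with DESeq2's size factors, 0.01 with at least 10 counts, 0.02 with limma-voom and 0.05 with the trend removed. With 1 library left out in turn, the log2 fold change ranged from −0.03 to 0.15 for Adamts4, −0.11 to 0.15 for Adamts7, −0.00 to 0.08 for Col4a2, −0.24 to 0.38 for Mmp19, −0.34 to 0.05 for Mmp1b and −0.17 to 0.21 for Mmp24. The cause was not tested. Leaving out 1 library also ended the calls of Col4a5 (without DMSO 2 or P3FI-90 2), Col9a3 (without P3FI-90 1, 1.37) and Mmp23 (without P3FI-90 2, 1.72). Adamts5 lost its call with the trend removed (0.41).

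The replicate block left 23 members higher and 17 lower, as without it, and changed the call of none of the 51 members, and the numbers carry no labelled pairing. Depth limits the 9 tested members under 10 normalized counts in 1 group and the 31 below the filter.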
